A study of Mus musculus with 10 samples.

Results

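Genes for splicing factors and for the heterogeneous nuclear ribonucleoproteins (hnRNPs) were examined in neutrophils from mouse blood. A gene was taken when its symbol starts with Srsf, Hnrnp or Sf3, or is Clk1, Clk2, Clk3, Clk4, Ddx5, Ddx17, U2af1 or U2af2, in the gene annotation of the array. This gave 43 of the 17097 genes that a probe set with a single symbol represents on the MG-430 PM array: 9 Srsf, 17 Hnrnp, 9 Sf3, 4 Clk, 2 Ddx and 2 U2af genes. Where several probe sets shared a symbol, the brightest on average was read, and 42 of the 43 had a mean log2 signal above 4.58, the median of all probe sets, as did 10734 genes in all. The gene below that limit was Srsf12, which lay between 2.78 and 3.40 on all arrays.

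The study measured how far gene expression differs from one mouse to the next beyond technical noise. All 10 mice were untreated C57BL/6 males, 3 months old, that had spent 9 days in the facility. Blood of 5 mice was handled separately (mice 1 to 5), and blood of the other 5 mice was combined and divided into 5 portions before cells were isolated (portions 1 to 5). Neutrophils were taken with magnetic beads through the surface protein Ly6G, at purities of 71.5% to 99.5% that the labels do not assign to single samples. The portions are technical repeats of 1 pool, so the spread between them measures handling and hybridization. Any difference between the mean of the mice and the mean of the pool compares the mice with this 1 mixture of 5 other mice.

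Introns are removed from pre-mRNA by the spliceosome, in which U2AF binds the end of the intron and recruits the U2 snRNP, whose SF3A and SF3B proteins hold the branch point. Serine/arginine-rich (SR) proteins, the Srsf genes, bind exons and promote their use, and they are switched and moved within the nucleus by phosphorylation through the CLK kinases. The hnRNPs coat nascent RNA and often oppose the use of an exon, and the RNA helicases DDX5 and DDX17 remodel RNA in the same machinery. Many of these transcripts control their own splicing through exons that lead to decay of the mRNA.

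Array medians lay between 4.50 and 4.74, and the array of mouse 5 stood apart before any gene was considered. Its 95th percentile was 7.46 against 8.72 to 9.25 on the other 9 arrays, and it correlated with them at r = 0.738 to 0.800 across probe sets. The 3′ minus 5′ signal of the Actb control, a measure of RNA integrity and labelling, was 4.57 in mouse 5 and 4.41 in mouse 3 against 1.28 to 2.72 elsewhere. The same difference for the Gapdh control was 3.05 in mouse 5, the smallest of all arrays. It was 6.16 in mouse 3 and 3.38 to 5.74 elsewhere. The 3′ signal of Gapdh was 7.78 in mouse 5 against 11.62 to 12.25 on the other 9 arrays. Its 5′ signal in mouse 5 was 4.73, near the median of that array, which limits the size of the difference there. The poly-A controls averaged 4.73 in mouse 5 against 5.58 to 8.06 on the other 9 arrays. The hybridization controls averaged 11.34 against 7.29 to 9.94. Mice 4 and 5 shared 0.490% of exactly equal values against at most 0.0620% in any other pair of arrays. Of 9 neutrophil markers 7 were read, without Ly6g itself. S100a8 and S100a9 were even, at 12.67 to 13.29 and 12.28 to 12.80 on all arrays, but the other 5 were lowest in mouse 5. There Csf3r read 9.68, Mmp9 8.38, Cxcr2 6.67, Mmp8 6.36 and Itgam 4.28, the last below the median of that array, 4.74. For these reasons results that rest on mouse 5 or mouse 4 are given with and without them. Of the readings above, only the equal values set mouse 4 apart. Its 95th percentile was 8.80, and its Actb difference of 1.28 was the smallest of all arrays. Mouse 3, with its large Actb and Gapdh differences, was kept in the sets of mice 1 to 3 and mice 1 to 4. The part of array quality in the results was not tested.

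Across the 42 genes, mouse 5 gave the lowest signal of all 10 arrays for 30, a share to be read against 43.8% of all 10734 genes. For 22 of the 42 genes mouse 5 lay more than 1 log2 unit below every other array, as it did for 22.4% of all genes. The median difference between mouse 5 and the median of mice 1 to 4 was -1.96 log2 for these genes and -0.51 for all genes. The 42 genes were bright, with a median signal level of 8.48 log2 against 6.22 for all genes. Over all 10734 genes the mouse 5 difference fell as signal level rose (Pearson r = -0.62), and over the 42 genes r was -0.20. The part of signal level in how the 42 genes differ from all genes was not tested. Mouse 3 was the highest of the 10 arrays for 24 of the 42 genes, against 21.1% of all genes, and mouse 4 lay below mice 1 to 3 for 28, against 52% of all genes.

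**Figure D1:**
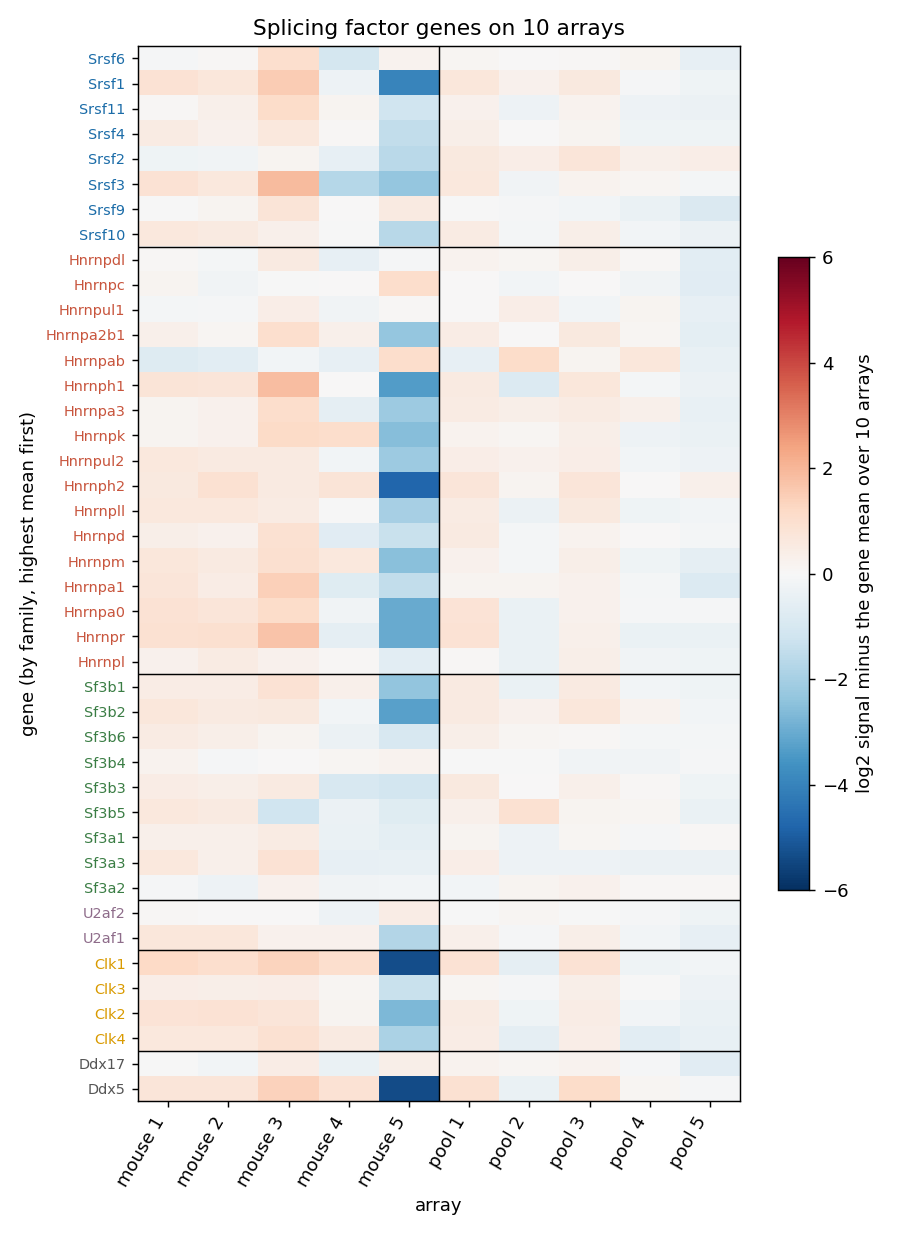
Log2 signal minus the gene's mean over 10 arrays (colour) for the 42 genes (rows, by family) on the arrays of 5 mice and 5 pool portions (columns). The column of mouse 5 is the lowest of the row for 30 genes, and that of mouse 3 is the highest for 24.

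The SD between the 5 mice ranged from 0.12 to 2.89 log2 over the 42 genes with a median of 0.92, against a median of 0.57 over all genes. Between the 5 portions it ranged from 0.10 to 0.70 with a median of 0.34, against 0.23 over all genes. The variance between mice exceeded the moderated technical variance for 32 of the 42 genes (limma variances, one-sided F test, Benjamini-Hochberg over 10734 genes, adjusted p under 0.05), beside 66.8% of all genes. By family the count was 7 of 8 Srsf, 12 of 17 Hnrnp, 7 of 9 Sf3, 4 of 4 Clk, 1 of 2 Ddx and 1 of 2 U2af genes. The readings spanned more than 1 log2 unit over the 5 mice for 36 of the 42 genes, beside 67.6% of all genes, and over the 5 portions for 10, beside 12.1%. No gene was called less variable between mice, with 0 of the 42 and 58 of all genes at an unadjusted p under 0.05. A Levene-type limma test on absolute deviations called 0 of the 42 and 0 of all genes, with 0 and 190 at an unadjusted p under 0.05.

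Without mouse 5 the count was 3 of 42, namely Srsf3, Srsf6 and Hnrnpa1, against 20.3% of all genes. Without mice 4 and 5 it was 0 of 42 against 0.708% of all genes, with 2 of the 42 at an unadjusted p under 0.05 against 8.93%. The median SD between mice was then 0.36 without mouse 5, against 0.33 for all genes, and 0.26 without mice 4 and 5, against 0.19.

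**Figure D2:**
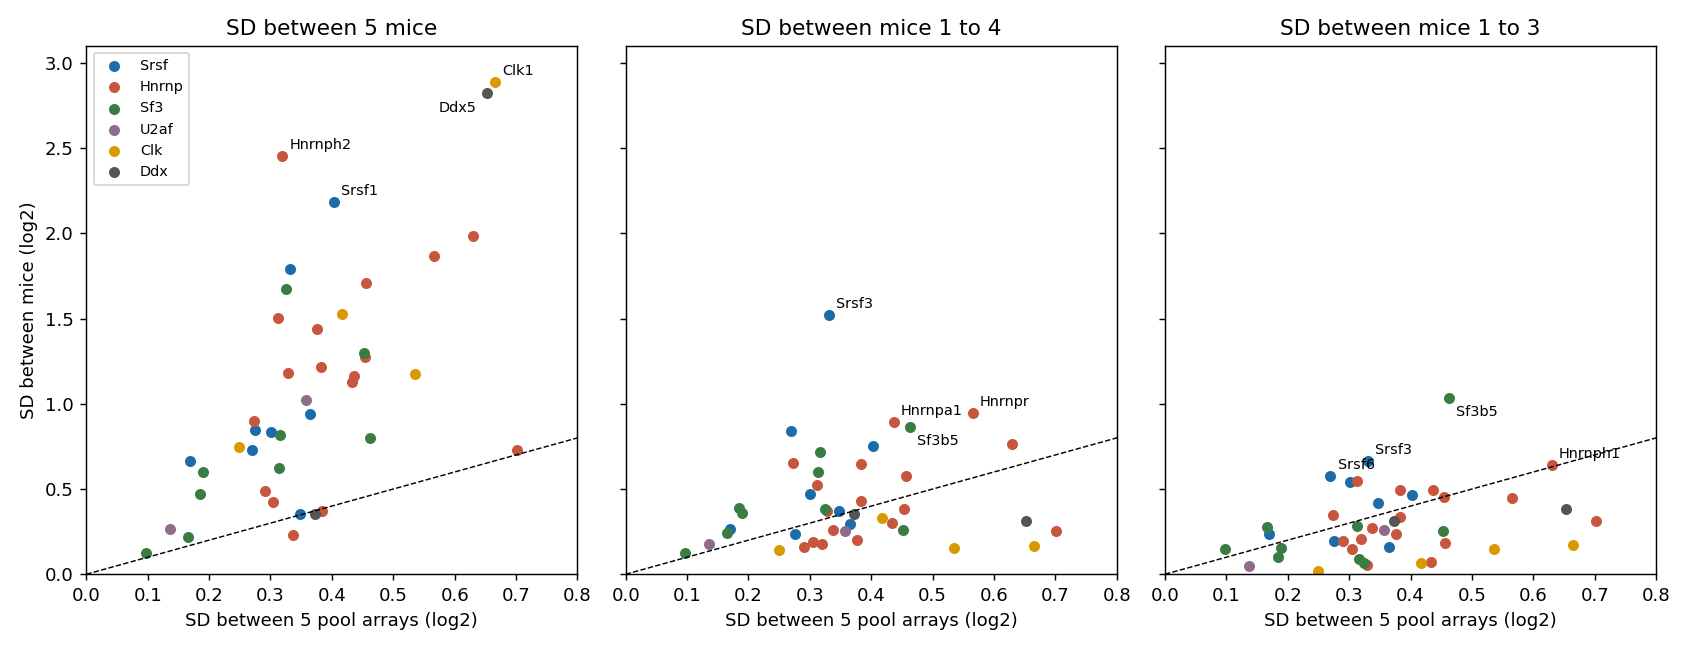
SD between mice against SD between the 5 pool portions (both log2) for the 42 genes, by family, over 5 mice, mice 1 to 4 and mice 1 to 3; the dashed line marks equal SDs. Clk1 and Ddx5 lie at 2.89 and 2.82 over 5 mice and at 0.17 and 0.31 over mice 1 to 4, while Srsf3 keeps an SD of 1.52.

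Among the SR proteins, Srsf3, the smallest of the family in textbooks and a regulator of its own splicing, varied most once mouse 5 was set aside. It read 8.10, 7.87, 9.12, 5.52 and 4.93 in mice 1 to 5 and 7.87, 7.02, 7.47, 7.34 and 7.14 in portions 1 to 5. Mouse 3 was above and mice 4 and 5 were below every portion. The SD between mice was 1.79 (n = 5) against 0.33 between portions (adjusted p = 1.1e-04), and 1.52 over mice 1 to 4 (adjusted p = 0.0011). All 4 Srsf3 probe sets above the limit read mice 4 and 5 lower than the other 8 arrays. Without mouse 4 as well, the SD was 0.66 and the adjusted p was 0.49.

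Srsf6 read 8.89, 9.04, 9.95, 7.90 and 9.15 in the mice and 9.09, 9.00, 9.02, 9.12 and 8.46 among the portions. Mouse 3 was the highest and mouse 4 the lowest array, with mouse 5 among the others. Its SD was 0.73 over 5 mice (adjusted p = 0.023) and 0.84 over mice 1 to 4 (adjusted p = 0.040), against 0.27 between portions. The call over 5 mice was lost without mouse 3 (adjusted p = 0.093), mouse 4 (0.20) or portion 4 (0.054). The call over mice 1 to 4 was lost without mouse 3 (adjusted p = 0.19), mouse 4 (0.68) or portion 2, 3 or 4 (0.062, 0.054 and 0.082), and also after centring of the arrays (0.053) and with the probe set of median mean (0.092). Its other 3 probe sets read mouse 5 lower than the median of mice 1 to 4 by 3.59, 2.05 and 1.08, whereas the one used read it 0.19 higher.

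Srsf1, the best known SR protein, read 9.70, 9.51, 10.39, 8.57 and 4.89 in the mice and 9.51, 9.10, 9.44, 8.79 and 8.58 among the portions. Mouse 5 was the lowest array by 3.68 log2 units, and mice 1, 2 and 3 were all above every portion, mouse 2 by less than 0.01. The SD was 2.18 over 5 mice against 0.40 over portions (adjusted p = 1.1e-04) and 0.75 over mice 1 to 4 (adjusted p = 0.11).

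Srsf2, which sits in nuclear speckles and is a standard marker of them, was the only gene of the set with all 5 mice below all 5 portions, beside 5.47% of all genes. It read 7.41, 7.46, 7.85, 7.21 and 6.09 in the mice against 8.29, 8.07, 8.41, 8.01 and 8.09 among the portions. The mean difference was -0.97 over 5 mice (SE 0.47, adjusted p = 1.00 by limma with the error between mice) and -0.60 over mice 1 to 3 (SE 0.18, adjusted p = 0.13). Its SD of 0.66 over 5 mice (adjusted p = 0.014) was not called after quantile normalization (adjusted p = 0.17). Its probe sets disagreed: the other 4 gave -0.11, 1.22, -0.14 and -0.18 for mice 1 to 3 minus the pool. In mouse 5 those 4 stood at 1.06, -2.82, 1.31 and -0.42 relative to mice 1 to 4, against -1.35 for the one used.

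Srsf9 was the only gene with all 5 mice above all 5 portions, beside 0.503% of all genes. It read 6.69, 6.87, 7.49, 6.72 and 7.24 in the mice and 6.69, 6.65, 6.56, 6.32 and 5.84 among the portions, so that mouse 1 and portion 1 differed by less than 0.01. The mean difference was 0.59 over 5 mice (SE 0.31) and did not pass (adjusted p = 1.00 by limma). Its variance test gave an adjusted p of 0.32 as deposited and 0.0018 after quantile normalization. The other Srsf genes tested, Srsf4, Srsf10 and Srsf11, were lower in mouse 5 than the median of mice 1 to 4 by 1.84, 2.09 and 1.45.

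**Figure D3:**
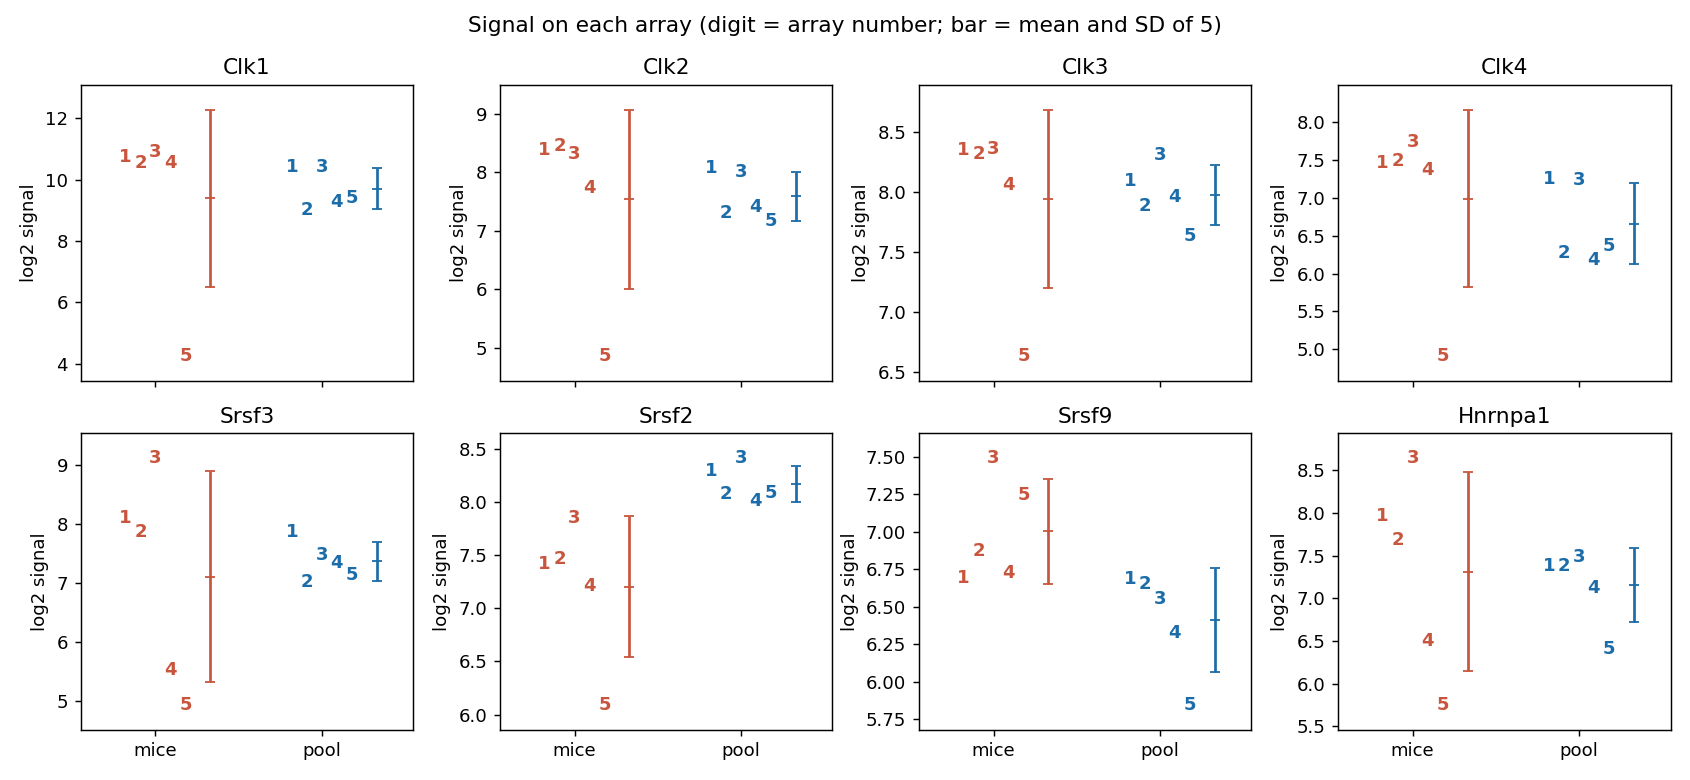
Log2 signal of 8 genes on each array, with digits for the number of the mouse (left) or pool portion (right) and bars for the mean and SD of 5. The 4 Clk genes have mouse 5 alone at the bottom, between 4.23 and 6.63, Srsf3 has mice 4 and 5 there, and Srsf2 and Srsf9 have mice and portions apart.

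The CLK kinases phosphorylate SR proteins, and all 4 were called more variable over 5 mice, beside 66.8% of all genes, and none over mice 1 to 4, beside 20.3%. Clk1 read 10.74, 10.54, 10.89, 10.56 and 4.23 in the mice and 10.41, 9.01, 10.42, 9.28 and 9.41 among the portions. Its signal in mouse 5 lay below the 4.74 that is the median of that array, so the 85.4-fold difference from mice 1 to 4 is set against a reading in the range where most probe sets of the array lie. Mice 1 to 4 were all above every portion, and among the portions 1 and 3 were the highest. The SD was 2.89 over 5 mice (adjusted p = 1.1e-04) and 0.17 over mice 1 to 4, less than the 0.67 between portions.

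Clk2 read 8.38, 8.44, 8.30, 7.73 and 4.85 in the mice and 8.07, 7.30, 8.00, 7.41 and 7.16 among the portions. Its SD was 1.53 over 5 mice (adjusted p = 4.2e-04) and 0.33 over mice 1 to 4, against 0.42 between portions. Mouse 5 was 11.2-fold below the median of mice 1 to 4, at a reading near the median of its array, 4.74.

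Clk3 read 8.35, 8.32, 8.36, 8.06 and 6.63 in the mice and 8.09, 7.89, 8.31, 7.96 and 7.63 among the portions. Mouse 5 was again the lowest array, at 3.27-fold below mice 1 to 4, and the SD was 0.75 over 5 mice (adjusted p = 0.013). This call of the variance test was lost after quantile normalization (adjusted p = 0.50). Over mice 1 to 3 the SD of Clk3 was 0.018, the smallest of the 42 genes in that set.

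Clk4 read 7.46, 7.48, 7.73, 7.37 and 4.90 in the mice and 7.25, 6.27, 7.24, 6.18 and 6.37 among the portions. Mice 1 to 4 exceeded every portion, mouse 5 was 5.93-fold below them, and the SD was 1.17 over 5 mice (adjusted p = 0.0036) against 0.54 between portions. The reading of 4.90 in mouse 5 also lay near the median of that array, 4.74. A second, dimmer Clk4 probe set read 4.96, 4.85, 4.60, 4.89 and 5.30 in the mice and did not place mouse 5 low.

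Over mice 1 to 3 all 4 Clk genes had a smaller SD than between the portions, as 27 of the 42 genes and 6172 of the 10734 did. No gene passed the test for less variance in that set; 6 of the 42 genes had an unadjusted p under 0.05 for it (Clk2, Clk3, Hnrnpll, Hnrnpul2, Sf3b2 and U2af2), beside 7.41% of all genes. Portions 1 and 3 were the highest portions for all 4 Clk genes. Their Actb 3′ minus 5′ differences, 2.23 and 1.36, were the smallest of the portions, against 2.57 to 2.72. The Gapdh control did not repeat this order, with 5.54 and 4.89 in portions 1 and 3 and 5.06 in portion 5. The part of RNA integrity and labelling in the spread between portions was not tested.

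Bases upstream of the start were read for the members with an entry in the RefSeq promoter table (GRCm38.p6). Entries were found for 36 of the 42 genes, without Clk1, Hnrnpll, Hnrnpul2, Sf3b4, Sf3b5 and U2af2. The 250 bases before the start are printed for the 3 kinases that were high in mice 1 to 3 and low in mouse 5 together, and for 2 SR genes of differing pattern, Srsf3 and Srsf2. Clk2 lies at chr3:89164545-89164794 on the plus strand, Clk3 at chr9:57765115-57765364 on the minus strand and Clk4 at chr11:51262864-51263113 on the plus strand. Srsf3 lies at chr17:29032410-29032659 on the plus strand and Srsf2 at chr11:116853095-116853344 on the minus strand. Capitals mark matches on either strand to TGACG (the core of the cAMP response element), to the CCAAT box, to the GC box written as GGGCGG, and to the TATA box written as TATAAA.
Clk2: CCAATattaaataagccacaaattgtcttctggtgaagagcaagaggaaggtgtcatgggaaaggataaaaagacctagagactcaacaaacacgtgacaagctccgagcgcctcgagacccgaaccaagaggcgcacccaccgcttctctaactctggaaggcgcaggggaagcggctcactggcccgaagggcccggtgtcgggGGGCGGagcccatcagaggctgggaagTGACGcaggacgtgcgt
Clk3: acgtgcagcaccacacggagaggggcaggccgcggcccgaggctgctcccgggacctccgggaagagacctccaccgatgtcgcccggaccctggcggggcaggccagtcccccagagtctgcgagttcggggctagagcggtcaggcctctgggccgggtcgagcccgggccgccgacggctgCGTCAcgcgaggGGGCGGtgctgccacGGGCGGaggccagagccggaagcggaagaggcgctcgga
Clk4: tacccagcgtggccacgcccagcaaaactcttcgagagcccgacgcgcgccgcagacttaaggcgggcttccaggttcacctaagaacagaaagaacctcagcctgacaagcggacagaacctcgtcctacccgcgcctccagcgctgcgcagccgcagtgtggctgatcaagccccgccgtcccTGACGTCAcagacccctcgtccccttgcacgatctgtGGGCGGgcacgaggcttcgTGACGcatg
Srsf3: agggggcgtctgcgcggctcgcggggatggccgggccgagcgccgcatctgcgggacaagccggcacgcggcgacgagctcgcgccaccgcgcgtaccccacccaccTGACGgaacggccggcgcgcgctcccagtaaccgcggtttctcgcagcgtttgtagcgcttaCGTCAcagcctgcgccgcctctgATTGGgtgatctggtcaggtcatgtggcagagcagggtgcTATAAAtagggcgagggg
Srsf2: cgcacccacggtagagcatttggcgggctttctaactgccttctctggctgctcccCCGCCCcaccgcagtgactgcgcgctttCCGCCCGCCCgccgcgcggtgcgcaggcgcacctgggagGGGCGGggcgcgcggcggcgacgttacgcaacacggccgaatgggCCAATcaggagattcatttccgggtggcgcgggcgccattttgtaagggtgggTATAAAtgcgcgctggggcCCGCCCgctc

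The letters TGACG were found on either strand upstream of 19 of the 36 genes (52.8%), beside 19.8% of the 27025 genes in the table. They were present for 3 of 3 Clk, 5 of 8 Srsf and 9 of 15 Hnrnp genes and for 0 of 7 Sf3 genes. CCGGAAG, the letters of an ETS factor site, were found for 12 of 36 genes (33.3% against 7.83%), among them 6 of 7 Sf3 genes and 1 of 15 Hnrnp genes. The GC box letters were present for 28 genes (77.8% against 35.4%), those of the CCAAT box for 20 (55.6% against 37.5%) and those of the TATA box for 6 (16.7% against 14.3%). The palindromic NRF1 motif was found for 1 gene (2.78% against 0.877%). Median GC content was 64.2% upstream of these genes and 52.4% upstream of all genes, and matches overlap where one motif's letters continue into another's. These are matches of letters, and their relation to the signals was not tested.

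The hnRNP genes had the largest range in mouse 5, from 5.47 log2 units below mice 1 to 4 to 1.60 above. Hnrnph2, a binder of G-rich RNA, read 9.23, 9.54, 9.15, 9.42 and 3.86 in the mice and 9.34, 8.79, 9.37, 8.67 and 8.94 among the portions. Mouse 5 stood alone, 44.2-fold below the median of mice 1 to 4 and below the median of its array. The SD was 2.45 over 5 mice (adjusted p = 7.7e-05) and 0.18 over mice 1 to 4, against 0.32 between portions. Its relative Hnrnph1 read 10.11, 10.09, 11.21, 9.34 and 6.01 in the mice and 9.90, 8.54, 10.03, 9.22 and 8.97 among the portions. Mice 1 to 3 exceeded every portion, and the SD between mice was 1.98 (adjusted p = 5.0e-04) with mouse 5 and 0.77 (adjusted p = 0.23) without it.

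Hnrnpa1, which competes with SR proteins for splice site choice, read 7.96, 7.69, 8.64, 6.50 and 5.75 in the mice and 7.38, 7.38, 7.48, 7.13 and 6.41 among the portions. Mice 1 to 3 were above every portion, mouse 4 was above portion 5 alone, and mouse 5 was the lowest. The SD was 1.17 over 5 mice (adjusted p = 0.0020) and 0.89 over mice 1 to 4 (adjusted p = 0.040), against 0.44 between portions. The last call was lost without mouse 3 (adjusted p = 0.11), without mouse 4 (0.86) and without portion 4 (0.057), as well as after centring of the arrays (0.059) and with the probe set of median mean (0.26). Its other 2 probe sets placed mouse 5 at -4.04 and 0.50 relative to mice 1 to 4, against -2.08 for the one used.

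Hnrnpa3 read 9.24, 9.37, 10.16, 8.58 and 6.92 in the mice and 9.59, 9.47, 9.59, 9.39 and 8.67 among the portions. Portion 5 stood below the other portions, and mice 4 and 5 were below it. Its 4 probe sets spanned mouse 5 differences from -5.37 to -0.32, the widest disagreement on 1 array among the 24 genes with more than 1 probe set above the limit.

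Probe sets also disagreed for 3 hnRNP genes that were not low in mouse 5. Hnrnpdl read 11.75, 11.56, 12.22, 11.18 and 11.64 in the mice and 11.89, 11.78, 12.03, 11.75 and 11.04 among the portions (SD 0.37 and 0.38, adjusted p = 0.40). Its other 3 probe sets placed mouse 5 at -1.48, -3.59 and -2.25 relative to mice 1 to 4, and with the probe set of median mean the variance test passed (adjusted p = 0.017). Hnrnpc, which packages nascent transcripts, read 11.37, 10.98, 11.19, 11.19 and 12.23 in the mice and 11.22, 11.03, 11.21, 11.00 and 10.51 among the portions. Mouse 5 was the highest array for Hnrnpc, 2.05-fold above mice 1 to 4, while a second, dimmer probe set placed it 1.31 lower. Its variance test did not pass (adjusted p = 0.14), but passed with the probe set of median mean (0.015), after quantile normalization (0.0033) and without portion 5 (0.0087).

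Hnrnpab read 9.33, 9.48, 9.93, 9.61 and 11.14 in the mice and 9.61, 11.23, 10.28, 10.79 and 9.67 among the portions. Mouse 5 and portion 2 were the high arrays, and the SD of 0.73 between mice was near the 0.70 between portions (adjusted p = 0.18). The other 3 Hnrnpab probe sets above the limit placed mouse 5 between -3.42 and -2.29 relative to mice 1 to 4, and mice 1 to 3 above the pool by 0.74 to 1.15, against -0.73 for the one used. With the probe set of median mean the variance test passed (adjusted p = 0.0037).

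Hnrnpul1 read 10.31, 10.35, 10.80, 10.21 and 10.51 in the mice and 10.46, 10.81, 10.28, 10.61 and 9.92 among the portions. The groups overlapped fully and the SD was 0.23 between mice and 0.34 between portions (adjusted p = 0.79). The other 9 hnRNP genes all lay below mice 1 to 4 in mouse 5, from Hnrnpl (-0.87) to Hnrnpr (-3.94). Among them Hnrnpr and Hnrnpa0 read 3.98 and 3.96 in mouse 5, below the median of that array. Hnrnpk, a binder of C-rich RNA, showed a difference between probe sets in mouse 4, at 10.10 and 8.26.

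**Figure D4:**
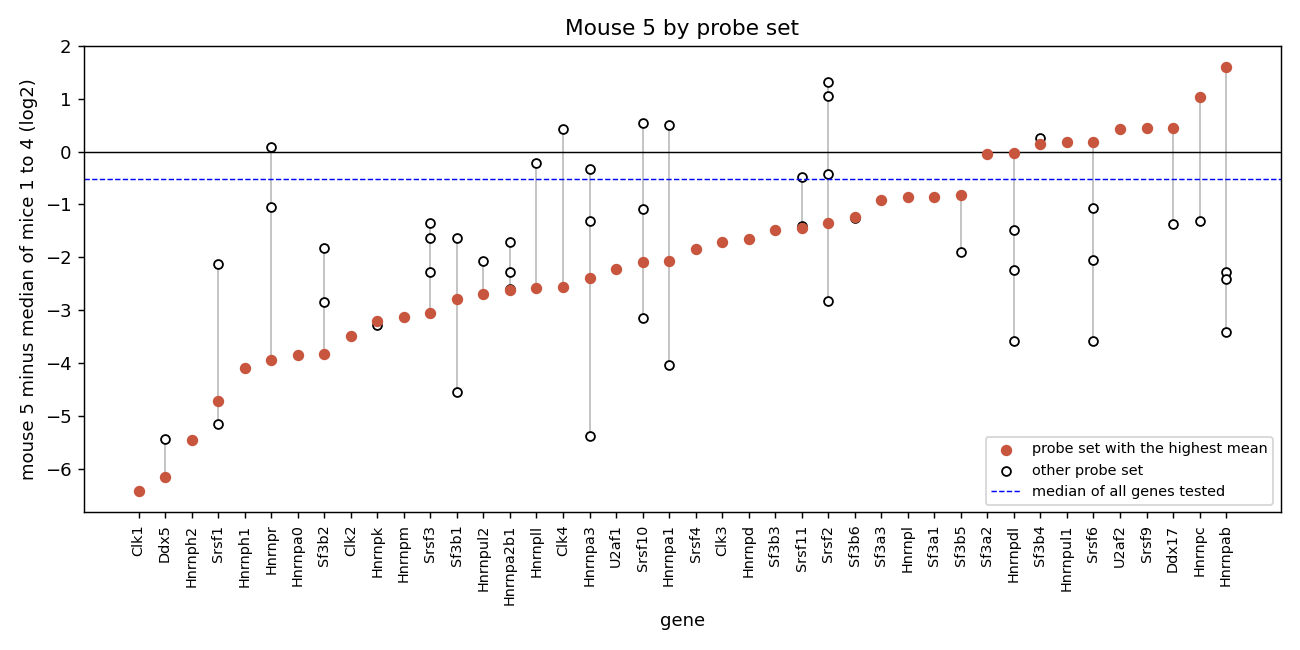
Mouse 5 minus the median of mice 1 to 4 (log2) for each probe set above the limit, by gene in order of the probe set read (filled) with other probe sets open; the dashed line is the median of all genes, -0.51. Both Ddx5 probe sets lie below -5, while those of Hnrnpab run from -3.42 to 1.60.

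Of the 24 genes with more than 1 probe set above the limit, 9 were over 1 log2 unit lower in mouse 5 on every probe set. Another 9 were over 1 unit lower on at least 1 probe set and higher on another. Readings of the same gene thus differed by probe set in mouse 5 by up to 4.68 log2 units in their deviation from the gene's mean.

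The SF3 proteins form the part of the U2 snRNP that binds the branch point. Sf3b1, the large subunit of SF3B that contacts the branch point, read 11.16, 11.14, 11.59, 10.99 and 8.36 in the mice and 11.24, 10.30, 11.26, 10.56 and 10.47 among the portions. Mouse 5 was 6.91-fold below mice 1 to 4, and the SD was 1.30 (adjusted p = 0.0019) with it and 0.26 (adjusted p = 0.85) without it. Sf3b2 read 9.57, 9.43, 9.48, 8.74 and 5.63 in the mice and 9.44, 9.12, 9.57, 9.11 and 8.74 among the portions. Mouse 4 was level with the lowest portion and mouse 5 was 14.2-fold below mice 1 to 4 (SD 1.68, adjusted p = 2.3e-04, and 0.38 without mouse 5, adjusted p = 0.54).

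Sf3b4 had the smallest SD between mice of the 42 genes, 0.12 against 0.10 between portions. It read 8.44, 8.15, 8.25, 8.33 and 8.43 in the mice and 8.21, 8.19, 8.02, 8.00 and 8.13 among the portions. A second Sf3b4 probe set also placed mouse 5 above mice 1 to 4, by 0.27 against 0.15 for the one used. The variance ratio is taken over the moderated technical variance, not over the portions' own SD of 0.10, and was -2.28 log2 for Sf3b4 as deposited. After quantile normalization of the arrays, however, this ratio changed direction (3.56 log2) and the variance test passed (adjusted p = 0.0019).

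Sf3a3 read 6.94, 6.61, 7.18, 5.80 and 5.87 in the mice and 6.68, 6.00, 5.97, 5.97 and 5.96 among the portions. Mice 1 to 3 were above portions 2 to 5, mice 4 and 5 were below all portions, and the SD was 0.62 (adjusted p = 0.018) with mouse 5 and 0.60 (adjusted p = 0.067) without it. The call over 5 mice was also lost after quantile normalization (adjusted p = 0.085). Sf3a2 stayed near the limit of the filter at 4.59, 4.35, 4.91, 4.44 and 4.47 in the mice and 4.48, 4.83, 4.92, 4.73 and 4.70 among the portions (adjusted p = 0.21). Of the remaining Sf3 genes, Sf3b5 departed from the pattern, with mouse 3 its lowest array at 6.16 against 7.98, 7.92, 7.00 and 6.64 in mice 1, 2, 4 and 5.

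U2af1, the subunit of U2AF that reads the AG at the end of the intron, read 7.77, 7.80, 7.34, 7.35 and 5.34 in the mice and 7.39, 7.04, 7.47, 6.93 and 6.59 among the portions. Mouse 5 was 4.67-fold below mice 1 to 4 (SD 1.02, adjusted p = 0.0023, and 0.25 without mouse 5, adjusted p = 0.76). Its partner U2af2, which binds the polypyrimidine tract, read 9.41, 9.32, 9.35, 9.01 and 9.75 in the mice and 9.27, 9.46, 9.28, 9.24 and 9.07 among the portions. Mouse 5 was there the highest array, and the variance test gave an adjusted p of 0.57.

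The helicases parted from each other in mouse 5 as the U2AF subunits did. Ddx5 read 11.65, 11.62, 12.30, 11.77 and 5.56 in the mice and 11.84, 10.53, 12.03, 11.01 and 10.83 among the portions. Mouse 5 was 71.2-fold below mice 1 to 4, a second probe set gave a difference of -5.44 against -6.15, and the SD was 2.82 (adjusted p = 1.1e-04) with mouse 5 and 0.31 (adjusted p = 0.85) without it. Ddx17 read 11.33, 11.18, 11.79, 10.95 and 11.71 in the mice and 11.56, 11.48, 11.56, 11.29 and 10.67 among the portions. Its groups overlapped (adjusted p = 0.45, and 0.033 without portion 5), although the second, dimmer Ddx17 probe set placed mouse 5 lower by 1.37.

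Readings for mouse 5 depended in part on the scale of the arrays. As deposited, 34 of the 42 genes were lower in mouse 5 than the median of mice 1 to 4 and 8 were higher. After quantile normalization the split was 32 to 10 and the medians were -0.60 for these genes and -0.02 for all genes. With arrays centred on their medians the split was 37 to 5 and the medians were -2.19 and -0.73. Relative to the median gene, 29 of the 42 genes were lower under all 3 scales, and 20 were more than 1 log2 unit lower than mice 1 to 4 under all 3. These splits and counts were not made over all genes, so they have no background share and describe the 42 genes alone. Genes whose direction changed were Sf3b5 and Sf3b6, higher after quantile normalization, and Hnrnpul1, Sf3b4 and Srsf6, lower after centring.

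Family means placed mouse 5 lowest in every family plotted. The 4 Clk genes averaged 0.76, 0.72, 0.85, 0.46 and -2.82 log2 units from their own means in mice 1 to 5. The Srsf genes averaged 0.32, 0.30, 0.93, -0.41 and -1.44, and the Hnrnp genes 0.37, 0.35, 0.80, -0.07 and -1.72. The Sf3 genes averaged 0.42, 0.28, 0.29, -0.28 and -1.04, with mouse 1 the highest in this family. All tested genes averaged 0.14, 0.10, 0.14, -0.18 and -0.67 over the same mice.

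**Figure D5:**
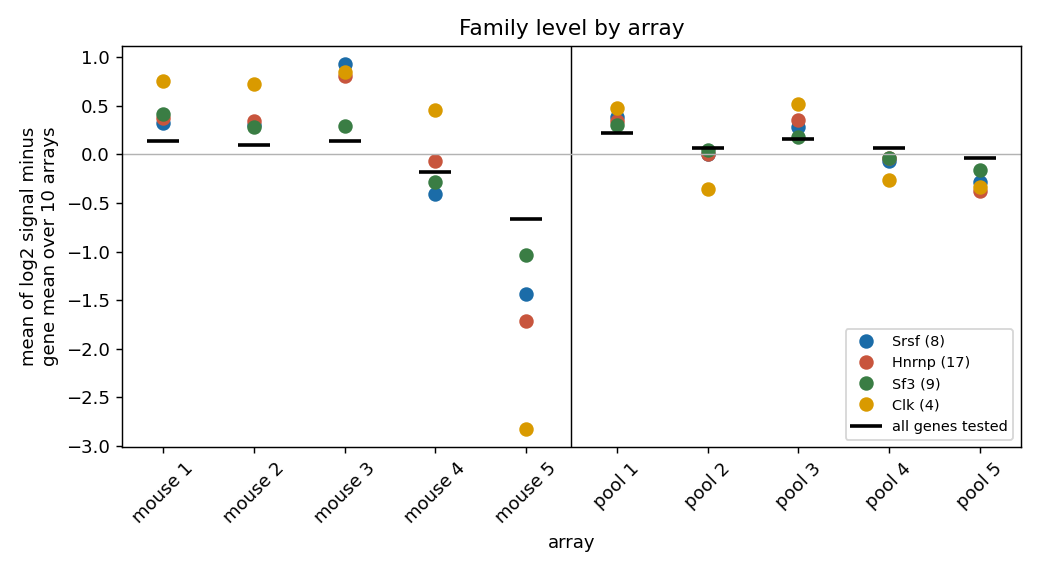
Mean over the genes of a family of log2 signal minus the gene's mean over 10 arrays, for 4 families (points) and all tested genes (dashes), by array. The Clk genes reach -2.82 in mouse 5, and the Srsf and Hnrnp genes reach 0.93 and 0.80 in mouse 3, against -0.67 and 0.14 for all genes.

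Between the mean of the 5 mice and the mean of the pool no gene passed the limma test in either direction, beside 0% of all genes; 0 of the 42 and 560 of all genes had an unadjusted p under 0.05. An ordinary 2-group limma fit called 0 of the 42 and 288 of all genes. Without mouse 5 again 0 of the 42 passed, beside 0.0186% of all genes higher and 1.43% lower.

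Over mice 1 to 3 the differences were mostly positive, for 38 of the 42 genes against 54.5% of all genes, with medians of 0.43 and 0.04. Clk1 was higher than in the pool by 1.02 log2 (SE 0.17, 2.03-fold, adjusted p = 0.049) and Clk4 by 0.90 (SE 0.15, 1.86-fold, adjusted p = 0.048). These were the 2 of 42 genes called higher, beside 1.08% of all genes, and 0 of 42 were called lower, beside 3.28%. Both calls were lost without mouse 1, mouse 2, or portions 2, 4 or 5, where adjusted p reached 0.23 for Clk1 and for Clk4. Without mouse 3, over mice 1 and 2 alone, the count called higher rose to 23 of 42. Among all genes it rose from 116 to 2634 in the same setting. With the ordinary 2-group fit the adjusted p was 0.078 for Clk1 and 0.058 for Clk4, and that fit called Hnrnpr and Sf3a3 higher in their place, with 373 of all genes. After quantile normalization the adjusted p was 0.056 for Clk4, and with the probe set of median mean it was 0.051 for both. That rule left the probe sets of Clk1 and Clk4 unchanged, with differences still at 1.02 and 0.90. The second Clk4 probe set, which was read in neither case, gave 0.033 for mice 1 to 3 minus the pool. The signals of mice 1 to 3 all exceeded those of the 5 portions for 12 of the 42 genes, beside 9.22% of all genes. These were the 4 Clk genes, Hnrnpa1, Hnrnph1, Hnrnpm, Hnrnpr, Hnrnpul2, Sf3a1, Srsf1 and Srsf9. Srsf2 alone lay below in all 3, beside 10.2% of all genes.

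Markers of other blood cells were read on the same arrays. The summed platelet markers (6 genes) lay at 12.98 to 13.98 log2 in the mice and 14.85 to 15.26 among the portions, without overlap in the sum or in any of the 6 genes. The summed monocyte markers (5 genes read) lay at 9.84 to 10.47 and 11.46 to 12.00, but F13a1 alone separated the groups and the other 4 genes overlapped. The summed T cell markers (7 genes read) lay at 8.19 to 8.79 and 9.10 to 9.38, where Lat alone separated the groups and Cd3d, Cd3e, Cd3g, Cd4, Cd8a and Cd8b1 overlapped. B cell markers (8 genes read) were at 12.20, 12.21, 13.17, 8.98 and 9.71 from the first mouse to the fifth, against 11.08 to 12.22 among the portions. The summed MHC class II genes (5 genes) were at 13.42, 13.26, 13.83, 9.54 and 12.30 in mice 1 to 5, with mouse 3 the highest and mouse 4 the lowest array, as for Srsf6. Of the single genes H2-Aa, H2-Eb1 and Cd74 had these extremes. H2-Ab1 was lowest in mouse 5, at 5.13, and Ciita was highest in mouse 2, at 6.08. The red cell markers (3 genes read) were at 12.77, 12.35, 11.60, 10.41 and 9.41 in the mice and 11.82 to 13.03 among the portions, a sum made mostly of Hba-a1. Hba-a1 was lowest in mouse 5, and the other 2 genes, Alas2 and Slc4a1, were lowest in mouse 4. The NK markers (5 genes) lay at 7.06 to 7.65 and 7.55 to 7.79. In bulk RNA fewer cells of a type and less RNA per cell cannot be told apart, and the part of other cells in the splicing factor signals was not tested.

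The rest of the splicing machinery was read from 6 lists of 109 genes, of which 86 were tested. More variable between the 5 mice were 11 of 16 snRNP proteins, 24 of 28 core spliceosome proteins, 18 of 23 other regulators, 7 of 8 kinases, 4 of 4 paraspeckle and FET proteins and 6 of 7 exon junction and decay factors. Together these were 70 of 86, beside 66.8% of all genes. Without mouse 5 the counts were 6, 5, 5, 3, 2 and 0, or 21 of 86, beside 20.3% of all genes. Without mice 4 and 5 a single gene passed, Tra2b, an SR-like activator of exons.

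Tra2b read 5.25, 6.03, 7.89, 4.26 and 4.05 in the mice and 5.59, 5.40, 5.65, 5.74 and 5.25 among the portions. Mouse 3 was more than 1 log2 unit above every other array (adjusted p = 0.0018 over mice 1 to 3). Snrpa1, a protein of the U2 snRNP, read 6.93, 6.80, 8.05, 2.79 and 3.68 in the mice and 6.89, 5.95, 6.08, 6.27 and 5.39 among the portions (adjusted p = 3.1e-04 over mice 1 to 4). Mice 4 and 5 lay below every portion for Snrpa1 and Tra2b, as they did for Srsf3.

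Snrpg, a ring protein of the snRNPs, read 9.85, 9.57, 10.50, 7.20 and 7.48 in the mice and 8.90 to 9.69 among the portions (adjusted p = 0.0029 over mice 1 to 4). Prpf19, a ubiquitin ligase of the activated spliceosome, read 8.51, 8.43, 9.33, 6.44 and 5.95 in the mice and 7.47 to 8.22 among the portions (adjusted p = 0.0039). Both had mouse 3 highest and mice 4 and 5 below every portion. Dyrk2, a kinase, read 8.27, 8.13, 8.99, 6.00 and 6.31 in the mice and 6.77 to 7.83 among the portions (adjusted p = 0.0060). Ewsr1, an RNA-binding protein of the FET family, read 9.68, 9.72, 11.02, 7.62 and 9.64 in the mice and 8.95 to 10.18 among the portions (adjusted p = 0.0070). For Ewsr1, as for Srsf6, mouse 4 was the lowest array and mouse 5 lay within the range of the portions or above it. Smg1, a kinase of nonsense-mediated decay, read 8.69, 8.90, 9.65, 8.22 and 6.33 in the mice and 7.67 to 8.62 among the portions, and was not called without mouse 5 (adjusted p = 0.27).

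Ptbp1, the polypyrimidine tract-binding protein that represses exons, ran in another order. It read 9.67, 9.83, 6.53, 11.26 and 9.43 in the mice and 7.17, 7.34, 6.84, 7.30 and 9.94 among the portions, with mouse 3 the lowest and mouse 4 the highest array. Portion 5 stood apart from the other 4 portions of the same pool, and the SD between portions was 1.26. Ddx39b, an export and splicing helicase, and Eftud2, a GTPase of the U5 snRNP, were higher in mice 1 to 3 than in the pool by 1.16 (SE 0.19, adjusted p = 0.049) and 0.72 (SE 0.11, adjusted p = 0.042). Of the 86 list genes these were the 2 called higher, beside 1.08% of all genes, and 0 were called lower, beside 3.28%. Without mouse 1 or without mouse 2, 0 of all genes were called higher, so neither call held there.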

How the data were processed

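RNA of Ly6G-selected neutrophils was labelled with biotin over 2 amplification cycles and hybridized to 10 MG-430 PM array strips, per the labels' protocols. The deposited table holds log2 signals of all probe sets, made with RMA per the submitters' processing notes; the RMA version and the genome build of the annotation are not given in the sources used here. Probe sets were named through the platform annotation (28898 with 1 symbol, 551 with several, 15588 with none, of 45141 with 104 controls), and 28689 of those with 1 symbol matched the RefSeq gene table (GRCm38.p6), with 0 symbols changed. Probe sets with several symbols, such as that of Hnrnph3 and Rufy2, were left out. Genes were filtered at the median probe set, 4.58.

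The variance between mice was set against the variance of the pool portions, moderated by squeezeVar of limma 3.58.1 (R 4.3.3) with an intensity trend, by a one-sided F test. Means were tested with limma's moderated test, with the error taken from the mice alone. Adjusted p-values are Benjamini-Hochberg over 10734 genes, with a threshold of 0.05. Portions of 1 pool are technical, so their spread says nothing of animals. The number of arrays limits the precision. Scripts were tested on simulated data.

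Values on every array were given by rule: the 2 genes of each family with the highest mean and the 2 with the largest SD between mice, all genes called without mouse 5, the 4 with the smallest p for the mean, the Clk, Ddx and U2af genes, the 4 with the smallest SD, the 3 whose probe sets disagreed most, and in each splicing list the 2 with the largest SD without mouse 5. Of the latter, 8 of 12 are described, and Ddx39b and Eftud2 were added after their values were seen. The genes and lists were chosen with earlier results of these data known. Alternatives covered filters, scales, probe sets, tests, the replicate block and arrays left out.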

Additional observations from a re-analysis of the deposited data

Results flagged for a closer look

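Signals were examined for single arrays that stand apart within a group of 5, by Dixon's ratio of the gap to the range (critical value 0.71), in 52 groups of 26 genes. Such a mark was found in 13 of the 52. Chance gives about 1 in 20 independent groups one, but these genes share the same arrays and were named in part for their spread, so the 13 cannot be set against that rate. In 9 of them mouse 5 was the low array: Clk1 at 4.23, Clk2 at 4.85, Clk3 at 6.63, Clk4 at 4.90, Ddx5 at 5.56, Hnrnph2 at 3.86, Sf3b1 at 8.36, Sf3b2 at 5.63 and U2af1 at 5.34. Among the portions of the pool, portion 5 was low for Hnrnpa3 at 8.67, Hnrnpdl at 11.04 and Srsf6 at 8.46, with the nearest portions at 9.39, 11.75 and 9.00. Portion 1 was high for Sf3a3 at 6.68, with the nearest portion at 6.00. The cause was not tested in any of these.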

How the results depend on the processing

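Of the 42 genes, 32 were called more variable between mice, beside 66.8% of all genes. The count was 0 with the Levene-type test, 0 with mice 4 and 5 left out (2 before adjustment, under 0.05), and between 3 and 35 when 1 array at a time was left out, the lowest without mouse 5. The median SD between mice, 0.92 with all mice, ran from 0.36 to 1.03 with 1 array left out and was 0.26 without mice 4 and 5. The median SD between portions, 0.34 as deposited, was 0.21 after quantile normalization. Genes with another mean numbered 0 in the main test and in every alternative with limma except that without mice 4 and 5, where 2 were called, both of them higher in mice. Where 1 more array was then left out, 0 to 23 of the 42 were higher and 0 to 2 lower, beside 0 to 2634 and 0 to 1596 of all genes. After quantile normalization 1 was higher, and 0 with the probe set of median mean, beside 102 and 90 of all genes. Over mice 1 to 4, 3 of the 42 were more variable, 8 after quantile normalization and 1 after centring, beside 2176, 2950 and 1982 of all genes. With 1 more array left out, 0 to 7 were, beside 76 to 2729 of all genes. These last alternatives, over mice 1 to 3 and mice 1 to 4, were chosen after seeing the data.

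Log2 variance ratios set the mice against the moderated technical variance, not against the portions' own SD. After quantile normalization they changed direction for Clk3 (-0.091), which lost its call, and for U2af2 (3.60) and Sf3b4 (3.56), which gained one. Without mice 4 and 5 they did so for Hnrnph2 (-1.47), Sf3b1 (-1.17), Sf3b2 (-4.66), Clk1 (-2.93), Clk2 (-4.78), Clk3 (-8.11), Clk4 (-2.67), Ddx5 (-0.56), U2af1 (-0.56) and Srsf2 (-0.46), and the mean difference of Clk1 became 1.02. With 1 array left out the ratio ran from -3.09 to 5.48 for Clk1, -0.23 to 4.68 for Clk2, -2.21 to 3.27 for Clk3, -2.63 to 3.72 for Clk4 and -1.12 to 5.50 for Ddx5. It ran from -1.90 to 6.11 for Hnrnph2, -1.13 to 3.90 for Sf3b1, -0.10 to 3.01 for Srsf2 and -0.61 to 3.99 for U2af1, negative in each case only without mouse 5. The fit with the replicate number as a block called 0 genes, as the fit without it did. Same-numbered mice and portions deviated together at r = 0.50, -0.26, 0.33, -0.19 and 0.44. Mice and portions come from different animals by the design, so the numbers pair no animals. Shared handling of arrays with the same number was not tested. The cause of these changes was not tested.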
